A study of Mus musculus with 10 samples.

Results

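The Nr4a genes Nr4a1, Nr4a2 and Nr4a3 were followed by ChIP-seq of RNA polymerase II (chromatin immunoprecipitation, then sequencing) in mouse Th1 cells, T helper cells that make interferon gamma, before and after restimulation. They were chosen by gene symbol, as the whole NR4A family, and are 3 of 10419 genes with a deposited promoter peak in any library; all 3 are among the 9908 genes tested. The strain was Balb/c DO11.10, whose mice carry a transgenic T cell receptor for an ovalbumin peptide. Primary CD4+ T cells were driven to the Th1 state with anti-CD3, anti-CD28, interleukin 12 and an antibody to interleukin 4, expanded with an interleukin 2 analogue and rested without it before use, and all 3 groups share this history. The groups were cells not restimulated (NR) and cells restimulated for 30 min or for 2 h with 5 µg/ml of anti-CD3 on the plate and 2.5 µg/ml of anti-CD28 in solution, with 2 libraries each. Chromatin was fixed in 1% formaldehyde for 10 min. The antibody was 8WG16, which binds the repeated tail of the largest polymerase subunit.

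NR4A proteins are transcription factors of the nuclear receptor superfamily. They are called orphan receptors because no natural ligand is needed for their activity, which is set mainly by how much protein is made. In T cells they are immediate early genes: signalling through the T cell receptor, by way of calcium and kinase pathways, switches them on without new protein synthesis. Nr4a1 (Nur77) is widely used as a readout of T cell receptor signalling and is known from the death of self-reactive thymocytes. Nr4a2 (Nurr1) is best known from dopamine neurons, and Nr4a3 (Nor1) overlaps with Nr4a1 in thymocytes and in T cells under chronic stimulation.

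In mm10, the build of the files, Nr4a1 (gene ID 15370, ENSMUSG00000023034) was annotated by the authors to chr15:101266846-101274794 on the plus strand. Nr4a2 (gene ID 18227, ENSMUSG00000026826) was annotated to chr2:57107226-57124003 on the minus strand. Nr4a3 (gene ID 18124, ENSMUSG00000028341) was annotated to chr4:48045305-48050161 on the plus strand, a short transcript of 4857 bp. RefSeq on GRCm38.p6, the same build, gives Nr4a3 41.4 kb (chr4:48045078-48086447), gives Nr4a1 20.9 kb from a further start 12944 bp upstream of the annotated one, and gives Nr4a2 17.2 kb. Positions below are counted in the direction of transcription from the start site in the authors' annotation.

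The promoters are shown because the polymerase peaks compared below lie on or beside them. Each line holds the 250 bases just upstream of the start site, 5′ to 3′ on the strand of the gene, from the RefSeq table on GRCm38.p6. The windows are chr15:101266596-101266845 for Nr4a1, chr2:57124004-57124253 for Nr4a2 and chr4:48045055-48045304 for Nr4a3. Capitals mark TGACG and its reverse complement CGTCA, the core of the cyclic AMP response element (CRE) to which the CREB family of transcription factors binds.
Nr4a1: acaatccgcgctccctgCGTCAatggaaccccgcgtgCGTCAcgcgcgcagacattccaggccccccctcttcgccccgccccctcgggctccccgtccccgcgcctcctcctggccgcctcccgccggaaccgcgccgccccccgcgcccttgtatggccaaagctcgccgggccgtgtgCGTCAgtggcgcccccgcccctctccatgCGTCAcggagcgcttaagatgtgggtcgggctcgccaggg
Nr4a2: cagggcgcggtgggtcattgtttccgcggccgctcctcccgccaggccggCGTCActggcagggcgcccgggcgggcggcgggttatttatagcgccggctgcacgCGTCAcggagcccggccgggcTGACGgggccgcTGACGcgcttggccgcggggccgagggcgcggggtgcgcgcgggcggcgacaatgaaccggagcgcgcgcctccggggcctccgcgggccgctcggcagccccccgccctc
Nr4a3: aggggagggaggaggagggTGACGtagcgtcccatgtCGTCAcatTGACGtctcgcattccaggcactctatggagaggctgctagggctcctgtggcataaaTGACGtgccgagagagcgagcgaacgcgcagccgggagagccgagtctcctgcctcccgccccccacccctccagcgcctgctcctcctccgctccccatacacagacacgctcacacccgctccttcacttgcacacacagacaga

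All 3 windows were rich in G and C, with 74.4% for Nr4a1, 80% for Nr4a2 and 63.6% for Nr4a3, against a median of 52.4% over the 32851 promoter windows in the table. Each window held 4 matches to TGACG on either strand. They began 233, 213, 69 and 40 bases upstream of the Nr4a1 start site, 200, 144, 123 and 111 bases upstream of Nr4a2, and 231, 213, 205 and 147 bases upstream of Nr4a3. Among all windows 17.8% held at least 1 match and 0.137% (45 windows) held at least 4. Among the 9178 windows with at least 60% G and C these shares were 27.1% and 0.37% (34 windows). The full CRE, TGACGTCA, had no match in any of the 3 windows and was found in 1.55% of all windows. The NBRE, AAAGGTCA, the element that NR4A monomers bind, and the AP-1 element TGANTCA also had no match in them, against 1.34% and 6.75% of all windows. The GC box GGGCGG matched 3 times in Nr4a1, 4 times in Nr4a2 and 1 time in Nr4a3 (32.7% of windows hold at least 1). The TATA box TATAAA matched 1 time, in Nr4a2 (12.4% of windows). That match began 164 bases upstream of the start site and lay on the strand opposite to the gene. The window of Nr4a3 lay inside a called peak in all 6 libraries and that of Nr4a1 in all 4 restimulated ones, with 241 bp called in NR replicate 2 and 0 in NR replicate 1. The Nr4a2 window was called whole in 4 libraries and not at all in NR replicate 1 and 30 min replicate 1. Matches were searched on both strands, and the TGACG count would include any full CRE.

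The value compared between libraries was the called length: the base pairs of DNA that the authors' peak caller marked as a promoter peak, within 1000 bp of a start site, and that they assigned to the gene. It measures how far stretches of polymerase signal over background reached, not how much polymerase lay on each base. Where a gene had separate promoter peaks, as Nr4a2 did in restimulated cells, their lengths were summed. The lists held 15330 to 23299 summits and 9074 to 10680 promoter peaks per library and no read counts. The background implied by the pileup and fold enrichment was used as an indirect measure of depth. Relative to the lowest library it was 1 (NR), 2.38 (30 min) and 3.76 (2 h) in replicates 1, against 8.94, 7.06 and 8.42 in replicates 2, so replicate 1 was the shallower library in every group. Of 10 fixed T cell and Th1 marker genes, 9 had a promoter peak in all 6 libraries (among them Cd3e, Cd4, Tbx21 and Ifng), whereas none of the 3 B cell, 4 myeloid, 2 NK cell, 2 Th17, 2 erythroid and 1 regulatory T cell (Foxp3) markers had one in any. Cd8a and the Th2 gene Il5 also had none, while 1 of the 2 CD8 T cell markers and 2 of the 3 Th2 markers had a peak in at least 1 library.

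Called polymerase at Nr4a3 grew longer on restimulation, from a short promoter peak to one that ran far into the gene, and this change passed the test at both times. The Nr4a1 values were as far apart, but the change missed the threshold. Nr4a2 differed less and missed the threshold too. Its inner start site had promoter peaks in restimulated cells only, while at the outer one the NR and 30 min lengths overlapped. None of the 3 genes passed the test between 2 h and 30 min. In a population of cells, polymerase on the gene in more cells and more polymerase per cell cannot be told apart.

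Nr4a1 had no promoter peak in NR replicate 1 and a peak of 483 bp in NR replicate 2. At 30 min the called length was 11034 bp in replicate 1 and 12478 bp in replicate 2, and at 2 h it was 11213 and 11338 bp. All 4 restimulated libraries lay above both NR libraries, by more than 10 kb, and the 2 h values fell within the range of the 30 min values. The means were 241.5 ± 342 bp without restimulation, 11756 ± 1021 bp at 30 min and 11275.5 ± 88.4 bp at 2 h (SD, n = 2 each). On the log2(bp + 100) scale used for the test, which understates changes from a low start, the difference from NR was 5.45 at 30 min (SE 0.71, limma adjusted p = 0.0766) and 5.08 at 2 h (SE 0.71, adjusted p = 0.0738). The difference between 2 h and 30 min was −0.37 (SE 0.71, adjusted p = 0.915). Without NR replicate 2 the Nr4a1 changes passed the test (adjusted p = 0.0199 at 30 min and 0.0248 at 2 h), and without NR replicate 1, the shallow library with no peak, they were 4.35 and 3.97 and did not (adjusted p = 0.0878 and 0.113).

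In the restimulated libraries the Nr4a1 peak covered the gene in the authors' annotation from end to end. It began 727 and 1272 bp upstream of the start site at 30 min and 638 and 856 bp upstream at 2 h. It ended 2357, 3256, 2625 and 2532 bp past the RefSeq gene end in 30 min replicates 1 and 2 and 2 h replicates 1 and 2. The peak of NR replicate 2 reached from 241 bp upstream to 241 bp downstream. Its summit lay 36 bp into the gene, and the summits of 3 restimulated libraries lay at 33 to 74 bp, whereas that of 30 min replicate 1 lay at 9100 bp, past the gene end. Whole cover by a single promoter peak, whichever gene that peak was assigned to, was counted among 3554 genes annotated with a length of 5 to 20 kb. The share of covered genes was 0.197% and 0.31% in the NR libraries, 0.619% and 1.77% at 30 min, and 1.01% and 1.49% at 2 h. Nr4a1 was 1 of 10 such genes (0.281%) covered whole in all 4 restimulated libraries and in neither NR library. The others were Bhlhe40, Egr3, Gpr171, Il10, Il21, Lilr4b, Myc, Nfkbid and Vim; this count was made after the Nr4a1 values were seen.

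Nr4a3 had a called length of 479 and 628 bp in NR replicates 1 and 2. It was 14671 and 27123 bp at 30 min, and 13614 and 14902 bp at 2 h. The NR values were close to each other and far below the rest, and the peak of 30 min replicate 2 was far longer than those of the other restimulated libraries. The means were 553.5 ± 105 bp without restimulation, 20897 ± 8805 bp at 30 min and 14258 ± 911 bp at 2 h (SD, n = 2 each). The log2 difference from NR was 4.79 at 30 min (SE 0.18, limma adjusted p = 0.00133) and 3.99 at 2 h (SE 0.18, adjusted p = 0.00283). Between 2 h and 30 min it was −0.80 (SE 0.18, adjusted p = 0.564), and the values of these groups overlapped. Nr4a3 was no longer past the threshold without NR replicate 1 (adjusted p = 0.0657 at 30 min and 0.0772 at 2 h), and at 2 h also without 2 h replicate 1 (adjusted p = 0.0564), at log2 differences of 4.79, 3.99 and 3.94.

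The Nr4a3 peak started well upstream of the gene. In NR cells it reached from 426 and 616 bp upstream to 52 and 11 bp downstream of the start site. In the restimulated libraries it reached from 2986 and 3681 bp (30 min) and 2970 and 3196 bp (2 h) upstream to 11684, 23441, 10643 and 11705 bp downstream. It thus passed the end of the short transcript, at 4856 bp, in all 4 and stopped at least 17701 bp short of the RefSeq gene end. Its summit in these libraries was not at the start site but 2170 to 2260 bp upstream. The same place held a summit in both NR libraries, 2147 and 2263 bp upstream, as a separate peak that is not in the promoter tables. By −log10 q that NR summit ranked 2764 of 19888 in replicate 1 and 1281 of 17627 in replicate 2, ahead of the Nr4a3 promoter summit, which ranked 19132 and 12354. The restimulated peak thus joined an upstream stretch that was called, but not counted for the gene, in NR cells. Counting only DNA downstream of the start site, an alternative added after the data were seen, gave log2 differences from NR of 6.75 at 30 min (adjusted p = 0.00277) and 5.84 at 2 h (adjusted p = 0.00356) for Nr4a3, and of 5.64 (adjusted p = 0.0323) and 5.25 (adjusted p = 0.0284) for Nr4a1.

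Nr4a2 had a called length of 829 and 1305 bp in NR replicates 1 and 2, 1626 and 7072 bp at 30 min, and 5517 and 9397 bp at 2 h. The restimulated values all lay above the NR values, but the lowest, in 30 min replicate 1, was close to them and the libraries of a group lay far apart. The means were 1067 ± 337 bp, 4349 ± 3851 bp and 7457 ± 2744 bp (SD, n = 2 each). The log2 difference from NR was 1.46 at 30 min (SE 0.44, limma adjusted p = 0.49) and 2.20 at 2 h (SE 0.44, adjusted p = 0.153), and between 2 h and 30 min it was 0.74 (SE 0.44, adjusted p = 0.866). At 2 h the change passed the test where the spread was estimated without 30 min replicate 1 (adjusted p = 0.0428) or without 30 min replicate 2 (adjusted p = 0.0343). In each restimulated group the shallower library had the shorter called length, and the part of depth in this was not tested.

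The added Nr4a2 length lay at separate places of the gene. At the outer start site the peak was 829 and 1305 bp long in NR cells, 841 and 3379 bp at 30 min, and 1777 and 4586 bp at 2 h. The inner start site, of a shorter transcript that begins at chr2:57115038, had no promoter peak in NR cells, and peaks of 785 and 3693 bp at 30 min and 3740 and 4811 bp at 2 h. Their summits lay 9115 to 9243 bp into the gene in all 4 restimulated libraries. The groups thus did not overlap at the inner start site. They did at the outer one, where 30 min replicate 1 was shorter than NR replicate 2. Counted by whole genes, 11.5% of all genes at 30 min and 52.3% at 2 h were longer than NR without overlap. The share among inner start sites was not computed. In 30 min replicate 1 the inner peak ranked only 7441 of 9074 promoter peaks by fold enrichment.

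**Figure D1:**
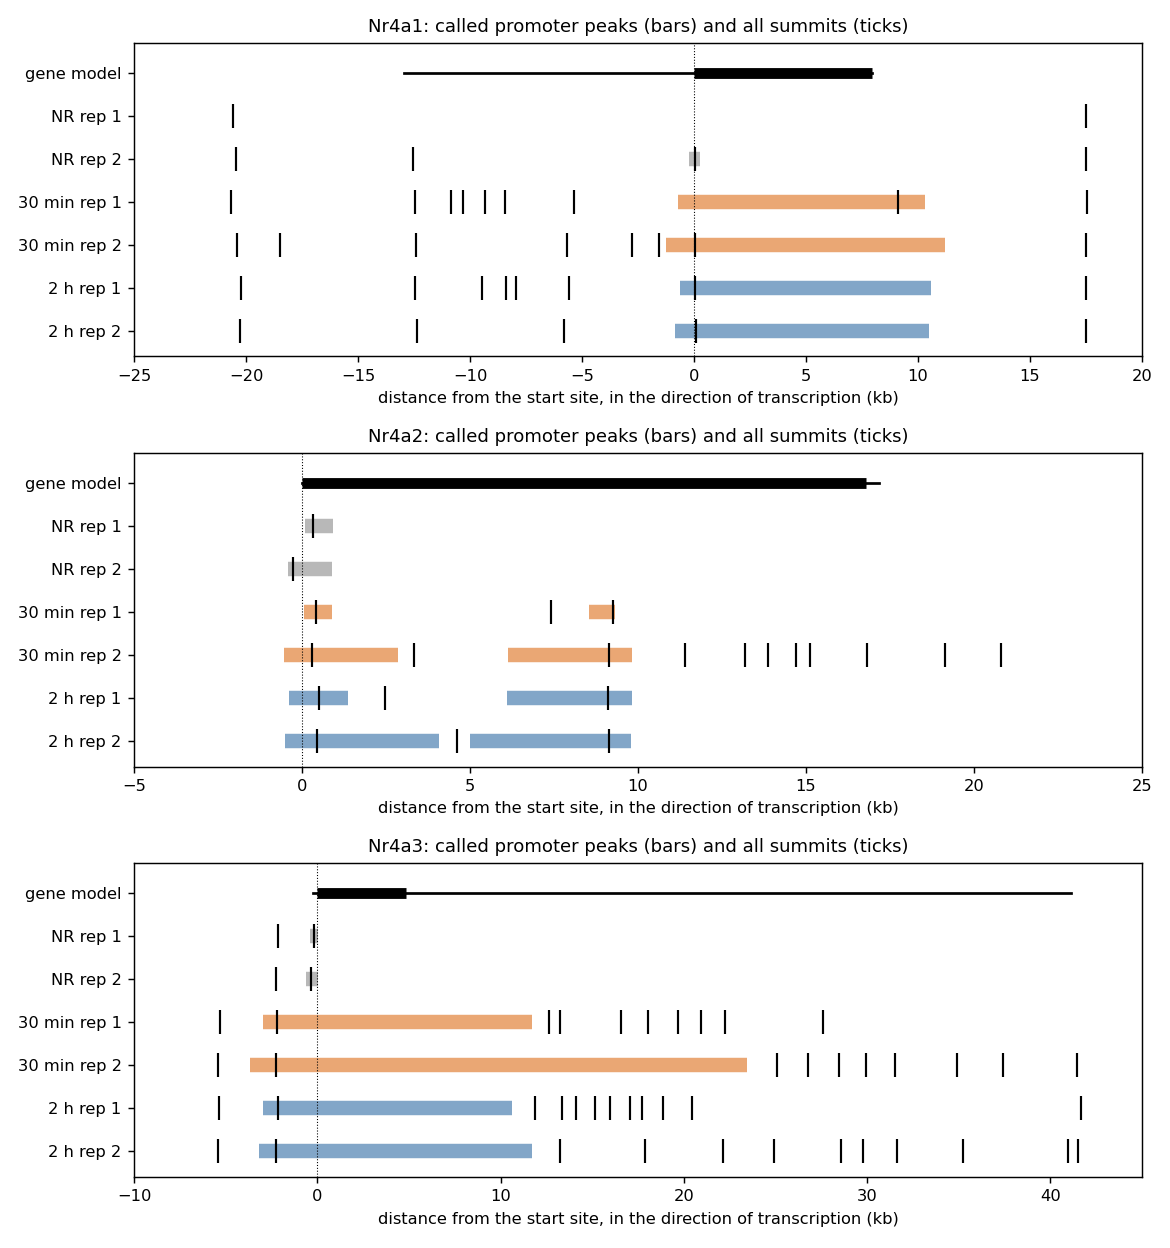
Maps of Nr4a1, Nr4a2 and Nr4a3, one panel per gene, with distance from the annotated start site in kb on the x axis and the gene model (thick: the authors' annotation, thin: RefSeq) above the 6 libraries. Bars are promoter peaks assigned to the gene and ticks are all called summits; in restimulated libraries the bars span the Nr4a1 gene (11034 to 12478 bp), a first stretch of Nr4a3 (13614 to 27123 bp), and separate places of Nr4a2.

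The maps of peaks and summits along the genes show these patterns side by side. The Nr4a1 bars stop at nearly the same place in the 4 restimulated libraries, beyond the gene end. The Nr4a3 bars of these libraries begin 2970 to 3681 bp upstream of the start site. They end 23441 bp downstream in 30 min replicate 2 and 10643 to 11705 bp downstream in the others. The Nr4a2 bars leave a gap between the outer and the inner start site, which is narrowest in 2 h replicate 2.

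**Figure D2:**
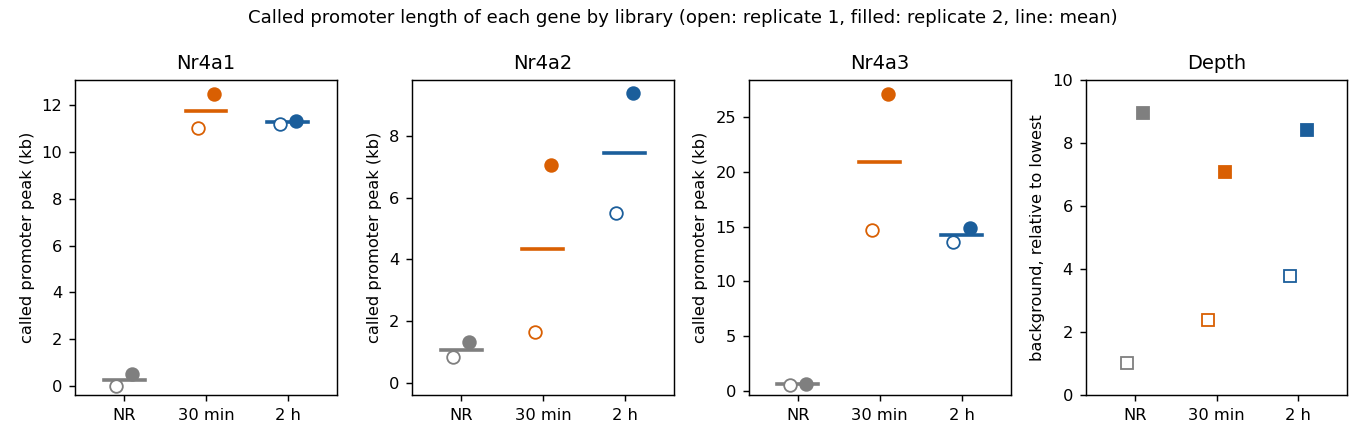
Called promoter length in kb (y axis, own scale for each gene) by group for Nr4a1, Nr4a2 and Nr4a3, with open points for replicate 1, filled points for replicate 2 and a line at the mean; the last panel gives the background of each library relative to the lowest, an indirect measure of depth. The restimulated points lie above the NR points for each gene, and replicate 2 lies above replicate 1 in every group of every panel.

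In the plot of called length by library, replicate 2 was the longer and the deeper library in every group. NR replicate 2 had the highest background of all 6 libraries, 8.94 times the lowest, and a called length of 483 bp at Nr4a1, 1305 bp at Nr4a2 and 628 bp at Nr4a3. 30 min replicate 1, at 2.38 times the lowest, had 11034, 1626 and 14671 bp. The part of depth in the differences was not tested.

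By the share of the RefSeq gene that lay in promoter peaks, the order of the genes differed between states. Other called peaks, such as those in the Nr4a3 gene body in restimulated cells, were not counted. The inner Nr4a2 peak was counted, since a start site lies there. In NR replicates 1 and 2 the share was 4.83% and 5.22% for Nr4a2, 0% and 2.31% for Nr4a1, and 0.677% and 0.578% for Nr4a3. By this measure Nr4a2 was first. In 30 min replicate 1 the share was 41.5% for Nr4a1, 28.8% for Nr4a3 and 9.47% for Nr4a2, and in replicate 2 it was 44.1%, 57.2% and 38.1%. At 2 h it was 41.1% and 42.1% for Nr4a1, 26.3% and 28.8% for Nr4a3, and 29.8% and 51.8% for Nr4a2. By this measure the order in restimulated cells was not the same in the replicates of a group. In both replicates, however, Nr4a2 was last at 30 min and Nr4a3 was last at 2 h. The RefSeq gene of Nr4a1 begins 12944 bp upstream of the start site in the authors' annotation. Its share thus reached only 44.1%, although the peak covered the gene in that annotation from end to end. The order of the genes depends on the gene model used.

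Across the family, 1 of the 3 genes (Nr4a3) passed limma's test at 30 min, where 0.232% of all 9908 genes tested were called longer (23 genes) and 1 gene was called shorter. At 2 h the same gene passed, with 0.373% of all genes called longer (37 genes) and 6 called shorter (35 and 1 without centring, 59 and 20 with quantile normalisation). Unadjusted p lay under 0.05 for all 3 genes in both comparisons, as it did for 793 and 1249 genes in all. The NR and restimulated values did not overlap for any of the 3 genes at 30 min or at 2 h, but 11.5% and 52.3% of all genes were longer without overlap in the same way. The share at 2 h is so high that the absence of overlap there says little about these genes. By size of change Nr4a1 ranked 6, Nr4a3 9 and Nr4a2 302 of 9908 at 30 min, and 22, 43 and 247 at 2 h. These comparisons share the NR libraries. The log2 changes and limma tests are relative to a shift of all genes, which the centring on the median gene removed. This shift was 0.16 at 30 min and 0.48 at 2 h (log2). Without centring the 3 genes kept their direction. The counts of genes whose called lengths did not overlap, here and elsewhere, used called bp without centring. They thus still contain this shift.

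Between 2 h and 30 min limma called 0 of the 3 genes, with 0% of all genes called longer and 0 genes called shorter, although the unadjusted p lay under 0.05 for 1 member, Nr4a3 (log2 difference −0.80), and for 513 genes in all. The values of the groups overlapped for all 3 genes, against 17.0% of genes that were longer at 2 h without overlap and 0.727% that were shorter. With 2 libraries in a group a permutation test can give no p under 0.333, so none was used.

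**Figure D3:**
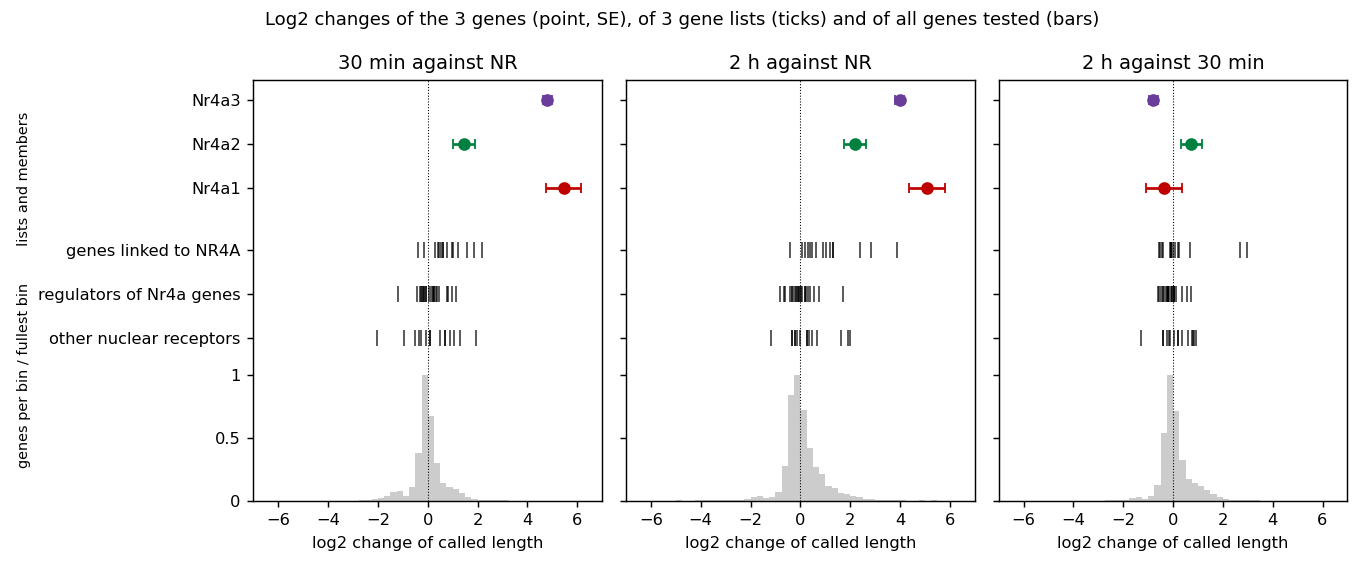
Log2 change of called length (x axis) in the 3 comparisons, with points and SE bars for Nr4a1, Nr4a2 and Nr4a3, ticks for the tested genes of 3 related lists, and bars for the number of all 9908 genes per bin divided by the fullest bin. Nr4a1 (5.45 and 5.08) and Nr4a3 (4.79 and 3.99) lie beyond every tick of the lists in both comparisons with NR, and Nr4a2 (1.46 and 2.20) lies among them.

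Within each library's own list, the authors' fold enrichment at the summit placed the Nr4a1 peak at rank 8064 of 10383 promoter peaks in NR replicate 2. It ranked 69 of 9074 and 200 of 10680 at 30 min, and 182 of 10549 and 1278 of 10658 at 2 h. By width the same peaks ranked 9457, then 27 and 81, then 52 and 83. The Nr4a3 peak ranked 9193 of 9360 and 9039 of 10383 by fold enrichment in NR cells, 1170 and 1418 at 30 min, and 2035 and 1731 at 2 h, and by width 7309 and 8176, then 6 and 4, then 25 and 41. In each restimulated library it thus stood nearer the top of its list by width than by fold enrichment. The outer Nr4a2 peak ranked 6027 and 8220 by fold enrichment in NR cells, 3281 and 3773 at 30 min, and 2291 and 2099 at 2 h, while the inner one ranked 7441 and 5407, then 6205 and 5454. Ranks come from lists of different lengths and were not compared between libraries.

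**Figure D4:**
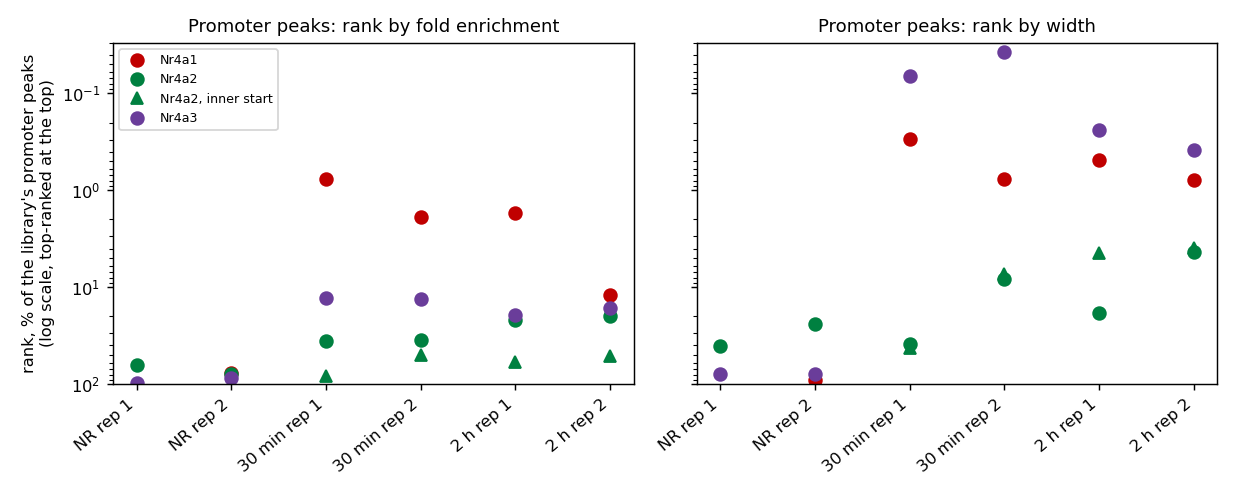
Rank of each Nr4a promoter peak within its library as a percent of the library's promoter peaks (y axis, log scale, top-ranked at the top), by fold enrichment on the left and by width on the right, with circles for Nr4a1, Nr4a3 and the outer Nr4a2 peak and triangles for the inner Nr4a2 peak. In 30 min replicate 1 the Nr4a1 peak ranked 69 and the Nr4a3 peak 1170 of 9074 by fold enrichment, and 27 and 6 by width.

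The plot of ranks shows that fold enrichment and width ordered Nr4a1 and Nr4a3 differently. Nr4a1 stood higher by fold enrichment and Nr4a3 higher by width in all 4 restimulated libraries. Nr4a1 is missing in NR replicate 1, where it had no promoter peak.

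All called summits within 50 kb of each gene were then counted, promoter or not. At the 3 genes each promoter peak held a single summit, however wide it was. Nr4a1 had 3 and 5 in NR cells, 10 and 9 at 30 min and 9 and 6 at 2 h. Nr4a2 had 1 and 1, then 3 and 11, then 3 and 3, and Nr4a3 had 2 and 2, then 10 and 10, then 12 and 12. The median over all genes tested was 3 or 4 in every library. All 3 genes had more summits in every restimulated library than in either NR library, as did 5.70% of all 9908 genes. When only the 15330 top summits of each library were kept, the counts were 3 and 5, 10 and 6, and 6 and 5 for Nr4a1, 1 and 1, 3 and 3, and 2 and 2 for Nr4a2, and 1 and 2, 10 and 4, and 5 and 3 for Nr4a3. Restimulated and NR libraries then did not overlap for Nr4a2 and Nr4a3, against 3.89% of all genes, and touched at 5 for Nr4a1.

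Summits of different libraries within 250 bp of each other were joined into sites. Nr4a1 had 16 sites within 50 kb, of which 3 were called in all 6 libraries: 42.6 kb upstream, at the promoter peak of A330009N23Rik, 20.4 kb upstream, and 17.5 kb downstream, at the promoter of Atg101. A site 12.4 kb upstream, near the outer RefSeq start of Nr4a1, was called in 5 libraries and not in NR replicate 1. Between this site and the start site in the authors' annotation, up to 5 further summits per library were called in restimulated cells and none in NR cells. By −log10 q these summits stood low, from 53.7% to 98% of the way down their library's list. The only one of 2 h replicate 2 ranked 18756 of 21743, outside the top 15330 kept above. The share of all genes with such a difference was not computed. Nr4a2 had 15 sites, and the one at the inner start site was its only site called in all 4 restimulated libraries and in no NR library. Of the others, 13 were called in a single library, 8 of them past the inner start in 30 min replicate 2. Nr4a3 had 28 sites. The site 2.24 kb upstream was called in all 6 libraries, a further one 5.38 kb upstream in the 4 restimulated libraries and no NR library, and the one at the promoter, 164 and 375 bp upstream, as a summit of its own in the NR libraries alone. The gene body of Nr4a3 held 0 summits in both NR libraries, 8 and 7 at 30 min and 9 and 9 at 2 h. The single summit of the restimulated promoter peak lay upstream of the gene. The summits in the gene body could thus only lie outside that peak.

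Neighbouring genes gave a local reference. Atg101, an autophagy gene 9.51 kb past the end of Nr4a1, had called lengths of 606 and 1185 bp without restimulation, 708 and 1034 bp at 30 min and 492 and 771 bp at 2 h, a log2 difference from NR of −0.15 (adjusted p = 0.936) and −0.88 (adjusted p = 0.324). Its groups overlapped. Gpd2, which encodes mitochondrial glycerol phosphate dehydrogenase, lies 114 kb from Nr4a2 and had 1215 and 1514, 1156 and 1904, and 1889 and 2153 bp (−0.04 and 0.06, adjusted p = 0.999 and 0.861). Stx17, a syntaxin gene 38.5 kb past Nr4a3, had 277 and 627, 0 and 750, and 629 and 802 bp (−1.0 and 0.15, adjusted p = 0.773 and 0.943). The neighbours on the other side, Grasp (21.1 kb away), Kcnj3 (1509 kb) and Sec61b (562 kb), had no assigned promoter peak. Each peak was assigned to 1 gene, so this does not show that their promoters lacked polymerase.

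The genes known to regulate the Nr4a genes were taken as a list of 25. It holds activators (calcineurin subunits, NFAT and MEF2 factors, CREB family members, SRF and its partner Elk1, the coactivators Crebbp and Ep300, ERK kinases and the kinase Prkd2) and repressors of MEF2-driven transcription (class IIa histone deacetylases and Cabin1). Of these, 23 were tested, and limma called 0 longer and 0 shorter in each of the 3 comparisons. The unadjusted limma p lay under 0.05 for 3, 2 and 2 of them, beside 793, 1249 and 513 of all 9908 genes. The median log2 difference of the 23 genes was 0.11 at 30 min, −0.04 at 2 h and −0.19 between 2 h and 30 min. Over all genes it was −0.04, −0.03 and −0.01. Values of NR and restimulated cells did not overlap, with longer peaks, for 4 of the 23 genes at 30 min and 12 at 2 h, beside 11.5% and 52.3% of all genes. Those with the most change among them missed the test: at 30 min Nfatc1, the NFAT factor that induces its own short form (1.15, adjusted p = 0.417), Crem, a CREB family member (0.80, adjusted p = 0.325) and Nfatc2 (0.32, adjusted p = 0.711). At 2 h they were Mapk7, the kinase ERK5 (1.69, adjusted p = 0.558), Nfatc1 (0.73, adjusted p = 0.409) and Creb1 (0.38, adjusted p = 0.716). The lowest limma adjusted p of the list at 2 h belonged to negative differences, of Ppp3ca (−0.62, adjusted p = 0.294) and Prkd2 (−0.82, adjusted p = 0.363). Between 2 h and 30 min it did so too, for Srf (−0.47, adjusted p = 0.692) and Crem (−0.56, adjusted p = 0.854). Nfatc1 had 2179 and 3539 bp without restimulation, 4154 and 11815 bp at 30 min and 5307 and 8029 bp at 2 h.

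Genes that NR4A factors are known to act on, or with, in T cells formed a list of 18, of which 15 were tested. At 30 min 1 of the 15 was called longer and 0 shorter, beside 0.232% of all genes called longer. The other 14 did not pass, and the median was 0.63 against −0.04 over all genes. The gene that passed was Pdcd1, which encodes the inhibitory receptor PD-1. Its called length was 416 and 618 bp without restimulation, 2069 and 2767 bp at 30 min, and 1742 and 2331 bp at 2 h, so both restimulated groups lay above NR. Its log2 difference at 30 min was 1.87 (SE 0.19, limma adjusted p = 0.0452), which lost the threshold in most alternatives tried, among them leaving out NR replicate 1 (adjusted p = 0.262) or NR replicate 2 (0.0977). Irf4, a transcription factor of activated T cells, had 3513 and 2772, 11442 and 23114, and 23134 and 24360 bp. Its log2 difference was 2.19 at 30 min (adjusted p = 0.15) and 2.41 at 2 h (adjusted p = 0.0881). Lag3, another inhibitory receptor gene, missed the test at 30 min (1.57, adjusted p = 0.437).

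At 2 h limma called 0 of these 15 genes. The unadjusted limma p lay under 0.05 for 6 of them, beside 1249 of all 9908 genes. The median of the list was 0.90 against −0.03 over all genes. Groups did not overlap, with longer peaks, for 9 of the 15 genes at 30 min and 14 at 2 h, beside 11.5% and 52.3% of all genes. Havcr2, which encodes the inhibitory receptor TIM-3, had no called peak in either NR library or in 30 min replicate 1, and had 569 bp in 30 min replicate 2 and 2103 and 1828 bp at 2 h (2 h against NR, adjusted p = 0.149). Il2, the gene of the T cell growth factor interleukin 2, had no called peak in the 4 NR and 30 min libraries, and 683 and 1135 bp at 2 h (adjusted p = 0.337). Havcr2 and Il2 thus had called peaks in both libraries of a group only at 2 h, but they were named for a large change at 2 h without overlap. Nr4a1 had peaks in both libraries at 30 min, and Nr4a3 in both libraries of every group, NR included. Between 2 h and 30 min 0 of the 15 genes were called, and their median was −0.08. The unadjusted limma p lay under 0.05 for 3 of them, beside 513 of all 9908 genes. Tigit, an inhibitory receptor gene, came next to Il2 and Havcr2 by size of change without overlap (0.69, adjusted p = 0.866).

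The rest of the nuclear receptor superfamily gave the background of the family. Of 46 other nuclear receptor genes, 16 had an assigned promoter peak in any library and 15 were tested. limma called 0 of them in each comparison, and the medians were 0.09, 0.26 and 0.18. The unadjusted limma p lay under 0.05 for 1, 0 and 0 of them, beside 793, 1249 and 513 of all 9908 genes. Groups did not overlap, with longer peaks, for 2 of the 15 genes at 30 min, 7 at 2 h and 0 between 2 h and 30 min, beside 11.5%, 52.3% and 17.0% of all genes. At 30 min these were Nr1h2, the oxysterol receptor LXR beta (0.68, adjusted p = 0.563), and Rara, a retinoic acid receptor (0.51, adjusted p = 0.712). Rara had peaks of 5984 and 8184 bp already in NR cells, then 9657 and 13052 bp at 30 min and 12080 and 13065 bp at 2 h. At 2 h those with the most change were Nr6a1 (1.98, adjusted p = 0.464), Esrra, an oestrogen-related receptor (1.91, adjusted p = 0.497), and Nr1d1, the clock repressor REV-ERB alpha (1.64, adjusted p = 0.552). Nr6a1 and Nr1d1 had no called peak in either NR library or in 30 min replicate 1, and peaks of at most 608 bp elsewhere.

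The genes whose called length varied most like each member over the 6 libraries were found by the root mean square difference of centred log2 values, with each gene's mean set to 0. Nr4a1 was nearest to Cdh23 (0.71), Ccl4 (0.74), Nr4a3 (0.81), Egr2 (0.92) and Tnfrsf9 (0.95). Nr4a3 was nearest to Cd40lg (0.45), Ccl3 (0.57), Ccl4 (0.59), Fes (0.61) and Slc2a4rg-ps (0.62). Nr4a2 was nearest to Ndrg1 (0.06), Msh4 (0.17), Cd5 (0.20), Rps20 (0.23) and Rpl38 (0.23). Ndrg1 had 942 and 1527, 1870 and 7315, and 6493 and 10333 bp, close to Nr4a2 in each library. Ccl3 and Ccl4, which encode chemokines, had no called peak in NR cells; Cd40lg, the gene of the CD40 ligand, had 681 and 581 bp there. Nr4a1 and Nr4a3 differed less from each other (0.81) than either did from Nr4a2 (1.87 and 1.41). The points share their libraries, so depth enters every one of these values, and its part was not tested.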

How the data were processed

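The submitters' processing notes name BWA 0.7.13, Picard 1.119, MACS2 2.1.0 and mm10, with no role or order. Each library has its own deposited summit list and its own table of promoter peaks within 1000 bp of a start site, in which the authors assigned each peak to 1 gene with a tool not given in the sources used here. Per the file headers, the deposited tables give a pileup (signal), a fold enrichment (a ratio) and −log10 p and q. Apart from the indirect measure of depth, which used pileup and fold enrichment, these only ranked or filtered peaks within a list. The 3 H3K36me3 libraries and 1 input library were not analysed here.

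Called length was summed per gene, taken as log2(bp + 100) and centred on each library's median over the 7410 genes called in all 6 libraries. Genes called in 2 libraries or more were fitted with limma 3.58.1 in R 4.3.3 (lmFit, eBayes with a trend, group only, all 6 libraries), with Benjamini-Hochberg adjusted p under 0.05 over 9908 genes. The labels do not say that replicates are separate animals or cultures, so p-values measure the spread between libraries, which may be technical. Lists are described by counts and medians. Named were the 3 members, up to 10 genes per list past the threshold, otherwise up to 3 with the largest change without overlap of groups, the 5 genes most like each member (predicted genes and small RNAs skipped) and the nearest neighbours. Members and lists were chosen with earlier results of these data known. Alternatives changed the pseudocount, filter, centring, peak threshold, list length, assignment, libraries and block.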

Additional observations from a re-analysis of the deposited data

How the results depend on the processing

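All 3 genes kept their direction against NR under each of 16 alternatives. At 30 min the log2 change ranged over 3.29 to 6.56 for Nr4a1, 0.83 to 2.1 for Nr4a2 and 3.27 to 6.75 for Nr4a3, and it passed the threshold in 5, 0 and 13 of them. At 2 h the ranges were 3.06 to 6.19, 1.24 to 2.68 and 2.95 to 5.84, with 5, 3 and 12 passing. The count of called genes, 1 of 3 in both comparisons, became 2 (Nr4a1 and Nr4a3) with a pseudocount of 1000 bp, without centring, with quantile normalisation and with DNA downstream of the start only (added after the data were seen). It became 2 (Nr4a2 and Nr4a3) at 2 h in a fit of only the 4 libraries compared. It became 0 with a peak threshold of −log10 q of at least 5 and with lists cut to 9074 promoter peaks, both of which remove the Nr4a3 peak of NR replicate 1 by construction (Nr4a3 adjusted p = 0.112 and 0.0745 at 30 min, 0.12 and 0.0662 at 2 h). Leaving out one library gave 0 (without NR replicate 1, and at 2 h also without replicate 1 of that group) to 2. The count between 2 h and 30 min stayed at 0 in every alternative. The numbers of all genes called longer, 23 and 37, went to 13 and 148 in a fit of only the libraries compared, to 33 and 93 with the larger pseudocount, to 27 and 71 with lists of equal length, to 21 and 59 with quantile normalisation, and to 4 and 4 without NR replicate 1, 53 and 138 without 30 min replicate 1, 52 and 145 without 30 min replicate 2, 5 and 3 when 2 h replicate 1 was left out, and 9 and 4 when 2 h replicate 2 was; the cause was not tested. Genes called shorter, 1 and 6, numbered 0 to 175 and 0 to 41 over the alternatives. Between 2 h and 30 min, 0 genes became 181 longer and 25 shorter without 30 min replicate 2, and at most 5 longer and 4 shorter in the other alternatives.

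The replicate numbers are shared between groups only as labels. With a replicate block 1 gene, Nr4a3, was called against NR at both times (adjusted p = 0.00582 and 0.0112), 0 between 2 h and 30 min, and all genes called longer numbered 18 and 28; Pdcd1 at 30 min was no longer past the threshold (adjusted p = 0.0835). Deviations of replicates 1 correlated by 0.442, 0.269 and 0.408 between groups, and replicate 1 was the shallower library each time.

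Where a library is left out, the remaining one of its group is assumed to vary like the other groups. Depth is known only indirectly, and a gene with no called peak is not shown to lack polymerase.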
